A study of Mus musculus with 82 samples.

Results

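Genes of ribosome biogenesis and RNA polymerase I were followed gene by gene in RNA-sequencing libraries of mouse aortic vascular smooth muscle cells (aVSMC). The set holds 50 genes of 55401 in the count tables, chosen by name from the steps of ribosome production and grouped here into 8 roles: RNA polymerase I subunits, box C/D snoRNP, box H/ACA snoRNP, nucleolar phosphoproteins and GTPases, early small-subunit processome, late 40S assembly, PeBoW complex and 60S assembly. The names were chosen with earlier results of these data known, so shares of called genes among them are descriptive. Counts were found for 48 of the 50 genes. Nob1, a nuclease of 40S maturation, and Nip7, a 60S assembly factor, were listed at 0 in all 82 libraries and are not described further. All 48 measured genes passed the filter on low counts at both time points.

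aVSMC were isolated from the aorta of mice, grown in DMEM with fetal calf serum and a supplement that itself contained EGF, and then kept for 24 h in medium without serum or supplements, the controls included. They were then incubated for 24 or 48 h with 10 µg/L EGF, 10 nM angiotensin II (AngII), 1 µM U46619, a stable thromboxane A2 analog that activates the thromboxane receptor TP, or their combinations. At 24 h, cells of 6 mice were each divided over 7 groups, namely a control, each substance alone, EGF together with AngII or with U46619, and all 3 together (EGF+AngII+U46619). At 48 h, 10 culture sets were deposited in 2 tables, prepared for sequencing as separate batches. The EGF/U46619 batch held 5 sets with Control, EGF, U46619 and EGF+U46619, and the EGF/AngII batch held 5 sets with Control, EGF, AngII and EGF+AngII. The 48 h groups therefore hold 5 libraries each, and 10 for Control and EGF. The 10 sets came from only 5 mice by their labels: mouse 7 gave sets 1 and 4 of the EGF/U46619 batch and sets 1, 2 and 5 of the EGF/AngII batch, mouse 10 gave set 5 of the first and set 4 of the second, and mice 8, 9 and 11 gave 1 set each. The 5 sets with U46619 at 48 h thus stand for 4 mice, and counts of sets below are not counts of animals.

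The libraries held 16483529 to 20818809 counted fragments at 24 h and 19936925 to 33916114 at 48 h, and levels are given as FPM, the fragments of a gene per megafragment (SI prefix mega) of the library size scaled between libraries. The smooth muscle marker Acta2 was present in all control libraries, at 1149 to 4949 FPM at 24 h. Tagln and Cnn1 were listed at 0, but so were all genes of chromosomes 9, X, Y and MT. A listed 0 therefore does not show that a marker is absent. Fibroblast markers summed to 8242 to 58634 FPM in the 24 h controls. Endothelial markers were also present, with a summed level of 10 markers between 4.97 and 2291 FPM in the 24 h controls. Cdh5 and Esam of that list were listed at 0, and the list was high in all libraries of mice 4 to 6 and low in those of mice 1 to 3. Of the 10 leukocyte markers, 6 were at 0 in all 24 h controls, and the summed level there was 21.8 to 117 FPM. The library EGF+AngII+U46619 of mouse 3 stood apart, since its 66 measured cytosolic ribosomal protein genes summed to 270496 FPM against a median of 56555 FPM in its group. At 48 h, the control libraries of replicates 2 and 4 of the EGF/AngII batch differed from the other libraries of their sets in fibroblast, leukocyte and endothelial markers. In such bulk samples, fewer cells of a type and less RNA per cell cannot be told apart.

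Ribosomes are built in the nucleolus. RNA polymerase I transcribes the precursor of the large ribosomal RNAs, small nucleolar ribonucleoproteins (snoRNPs) guide its chemical modification, and a series of processing and assembly complexes cleave it and join it to ribosomal proteins to form the 40S and 60S subunits. Growing cells make many ribosomes, and the genes encoding these factors are known targets of MYC, a transcription factor that binds the E-box sequence CACGTG.

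Since many of the genes moved together, their promoters were searched for that E-box, which reads the same on both strands. RefSeq promoter windows of GRCm38.p6, from 250 bases before to 50 bases after the transcription start, were at hand for 44 of the 50 genes. CACGTG was found in 10 of the 44 windows (22.73%), in 11.22% of the 9708 windows of genes tested here and in 8.093% of all 27025 windows. Before the start alone, it was found in 3 of 44 windows (6.818%), against 9.528% of the genes tested. The 10 genes were Imp4, Ltv1, Mybbp1a, Nop2, Pes1, Pno1, Tsr1, Utp18, Utp20 and Wdr43. The 3 genes with the E-box before their start and the 3 of the late 40S assembly group are shown, as 30 bases in the direction of the gene with the E-box in capitals.
Imp4: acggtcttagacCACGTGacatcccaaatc
Nop2: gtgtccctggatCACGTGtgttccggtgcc
Utp18: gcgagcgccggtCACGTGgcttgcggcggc
Ltv1: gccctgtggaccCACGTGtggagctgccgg
Pno1: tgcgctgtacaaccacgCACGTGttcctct
Tsr1: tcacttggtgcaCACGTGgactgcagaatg

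The Imp4 window lies at chr1:34439696-34439725 on the plus strand, the Nop2 window at chr6:125131811-125131840 on the plus strand and the Utp18 window at chr11:93885769-93885798 on the minus strand. The Ltv1 window lies at chr10:13193092-13193121 on the minus strand, the Pno1 window at chr11:17211540-17211569 on the minus strand and the Tsr1 window at chr11:74898092-74898121 on the plus strand. In the windows of Imp4, Nop2 and Utp18 the E-box begins upstream of the transcription start, and in those of Ltv1, Pno1 and Tsr1 it begins within the transcribed part. A match of these letters is a description of the window and no evidence of binding.

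Per kilobase of exon, the levels of the genes in the 24 h controls spanned a wide range. The length used is that of all annotated exons of a gene together, 11955 bases for Wdr12 and 3024 for Pes1. The order of the genes thus depends on the annotation. Npm1, encoding nucleophosmin, a histone and ribosomal protein chaperone of the nucleolus, was highest with 119 ± 15.5 FPM per kilobase (mean ± SD, n = 6). It was followed by Nhp2, a protein of box H/ACA snoRNPs, with 72.0 ± 22.02 FPM per kilobase and Nop10, of the same particles, with 43.7 ± 12.3 FPM per kilobase. The lowest were Wdr12 with 1.90 ± 0.204 FPM per kilobase and Rrp1b with 2.41 ± 0.686 FPM per kilobase. The catalytic RNA polymerase I subunits Polr1a and Polr1b lay near that end with 4.03 ± 1.20 and 3.01 ± 0.876 FPM per kilobase, whereas Polr1c, a subunit shared with RNA polymerase III, reached 30.2 ± 11.4 FPM per kilobase.

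Incubation with U46619 for 24 h raised nearly the whole set. A gene was called a differentially expressed gene (DEG) when edgeR's quasi-likelihood test and DESeq2 both gave a Benjamini-Hochberg adjusted p below 0.05 with the same sign and at least 1 of the groups compared reached a mean of 5 FPM. By this rule 44 of 48 genes were higher with U46619 than in the control and none was lower, while 12.9% of all 14528 genes tested were higher DEG and 13.9% lower DEG. The median log2-fold change of the 48 genes was 0.77, against -0.06 over all genes tested. The single genes ranged from 0.838-fold for Polr1c to 2.46-fold for Nop58, and 7 genes at least doubled. Within mice, 42 of the 48 genes were higher with U46619 in 6 of 6 mice, and the median difference of the genes was positive in every mouse, from 0.33 to 1.03 on the log2 scale.

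**Figure D1:**
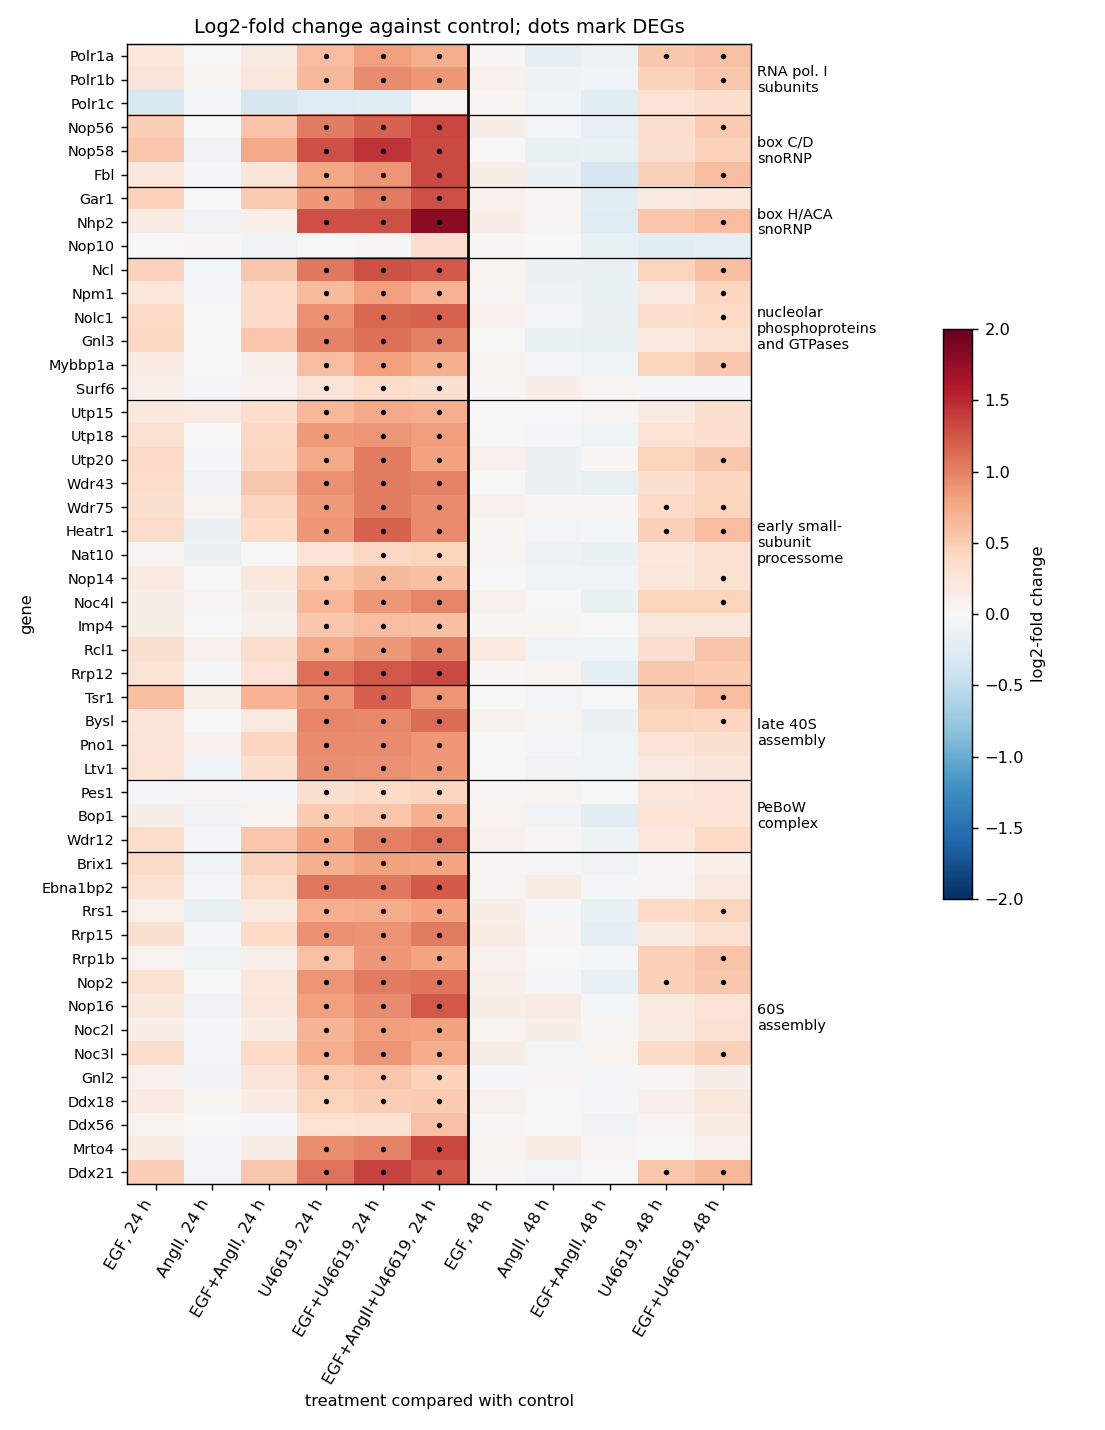
Log2-fold change against the control for the 48 measured genes (rows, grouped by role) in 6 comparisons at 24 h and 5 at 48 h (columns). Dots mark DEG. The columns with U46619 at 24 h are red for nearly every gene, with 44 to 46 dots each, those at 48 h are paler with 5 and 21 dots, and those without U46619 hold no dot.

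Of the RNA polymerase I subunits, Polr1a, which encodes the largest, catalytic subunit, had a median of 49.3 FPM in the 24 h controls (lowest 29.1, highest 68.8) and 70.6 FPM with U46619 (41.1 to 109). The ranges overlapped, with mouse 6 below the control median and below its own control. The log2-fold change was 0.61 ± 0.15 (SE; adjusted p = 0.00284 in edgeR and 0.0017 in DESeq2), with higher values in 5 of 6 mice. For Polr1b, the second-largest subunit, the median was 14.9 FPM in controls (13.6 to 25.4) and 27.2 FPM with U46619 (16.4 to 43.4). Each of the 6 mice was higher with U46619, at 0.64 ± 0.16 (adjusted p = 0.00263 in edgeR).

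Polr1c had the opposite sign, without being a DEG. Its level was 70.7 FPM in controls (39.2 to 95.8) and 54.8 FPM with U46619 (39.0 to 70.0), and it was lower in 5 of 6 mice. The log2-fold change was -0.25 ± 0.15 (adjusted p = 0.193 in edgeR).

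The box C/D snoRNP proteins Nop56, Nop58 and Fbl carry out 2′-O-methylation of ribosomal RNA, and all 3 rose, with a median log2-fold change of 1.02. Nop58 had the largest change of the whole set. Its level rose from 37.3 FPM in controls (26.1 to 68.8) to 105 FPM with U46619 (74.2 to 145), so that the groups did not overlap. The log2-fold change was 1.30 ± 0.25 (adjusted p = 0.000235 in edgeR), with a higher value in 6 of 6 mice. Fbl, the methyltransferase fibrillarin, went from 62.2 FPM (52.8 to 83.3) to 115 FPM (68.0 to 145), higher in 6 of 6 mice. Its log2-fold change of 0.78 ± 0.18 (adjusted p = 0.00116 in edgeR) is uncertain in size, because 2 near-identical copies of its sequence are listed with more counts than Fbl itself and fragments that match several places were counted.

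Of the box H/ACA snoRNP proteins, which serve pseudouridylation, Gar1 and Nhp2 rose and Nop10 was not a DEG. Nhp2 had a median of 87.8 FPM in controls (48.4 to 108) and 221 FPM with U46619 (79.6 to 283). It was higher in 6 of 6 mice, by 1.28 ± 0.25 on the log2 scale (adjusted p = 0.000267 in edgeR), while the lowest U46619 library, that of mouse 6, lay inside the control range. Nop10 had medians of 42.6 and 43.9 FPM in these groups and a log2-fold change of -0.01 ± 0.16, with 3 mice on either side of 0.

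All 6 nucleolar phosphoproteins and GTPases rose. Ncl, nucleolin, which binds nascent ribosomal RNA, went from a median of 278 FPM in controls (230.1 to 349) to 620.5 FPM with U46619 (422 to 752). The groups were separate and all 6 mice were higher, at 1.06 ± 0.17 (adjusted p = 4.96e-05 in edgeR). Npm1 was at 298 FPM in controls (276 to 376) and 455 FPM with U46619 (408 to 674), also without overlap and with 6 of 6 mice higher. Its log2-fold change was 0.63 ± 0.16 (adjusted p = 0.00264 in edgeR). Nolc1, Gnl3 and Mybbp1a rose as well, and Surf6 was the smallest DEG of the set with 0.26 ± 0.10 (adjusted p = 0.0463 in edgeR).

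**Figure D2:**
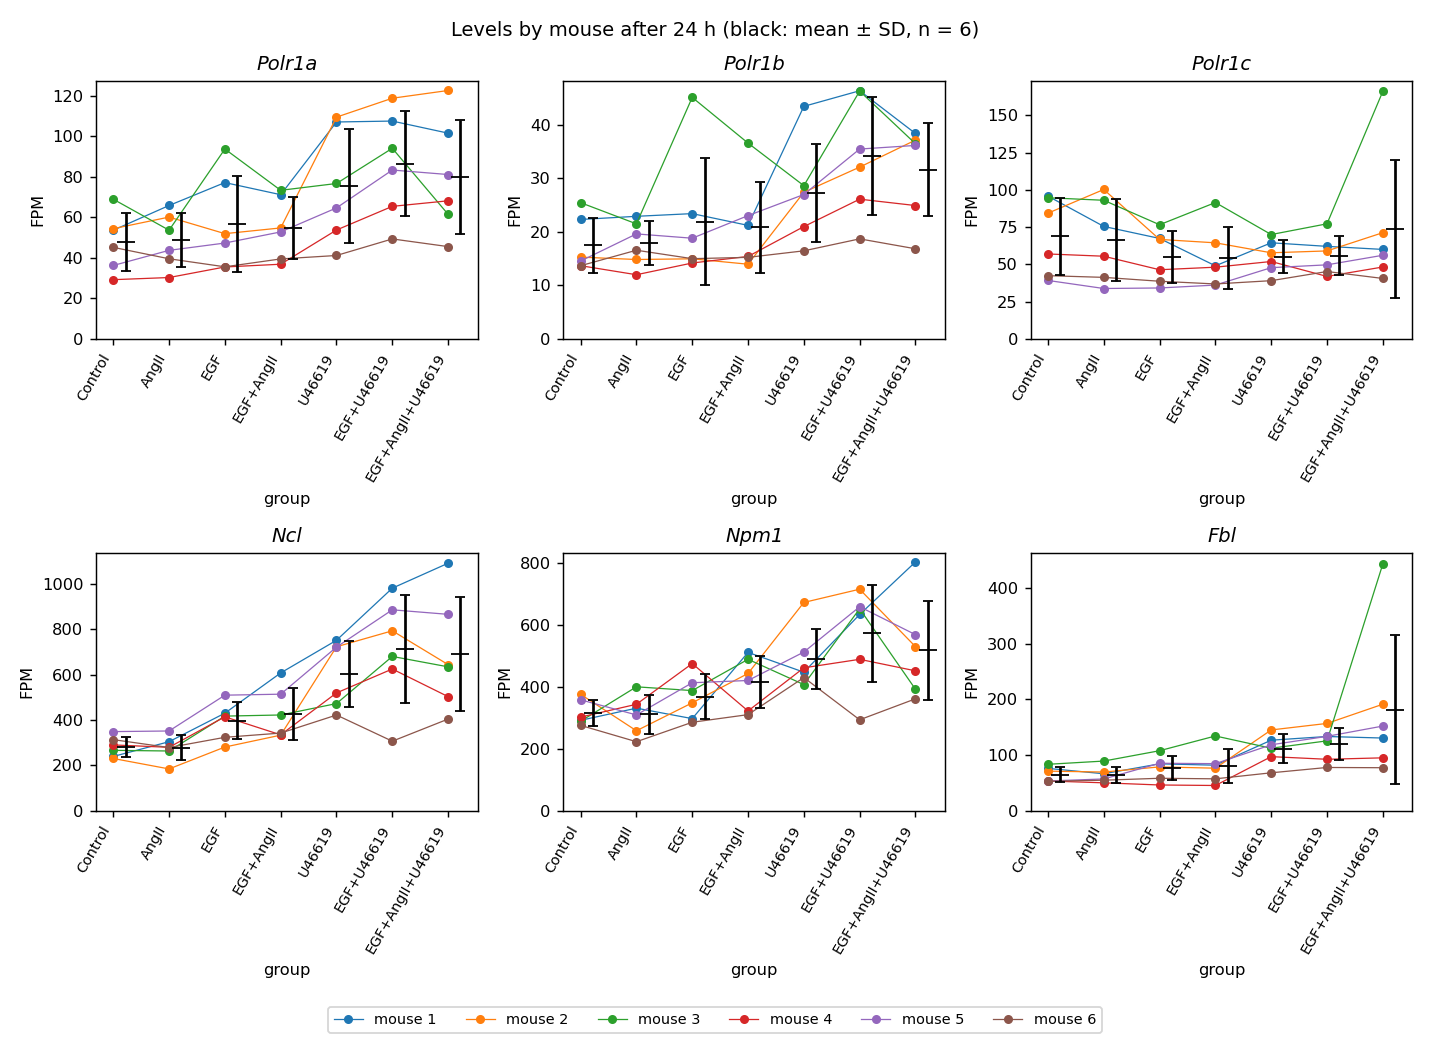
Level (FPM, linear axis from 0) of Polr1a, Polr1b, Polr1c, Ncl, Npm1 and Fbl in the 7 groups at 24 h, 1 line per mouse, with the mean ± SD of the 6 mice in black. All but Polr1c are higher in the groups with U46619, and for Fbl and Polr1c the EGF+AngII+U46619 library of mouse 3 lies far above the rest, at 443 and 166.2 FPM.

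The early small-subunit processome cleaves and folds the 5′ part of the precursor RNA, and 11 of its 12 genes rose, by a median of 0.76 on the log2 scale. Rrp12, an export and maturation factor, was the most changed. Its level was 17.0 FPM in controls (14.2 to 22.4) and 36.7 FPM with U46619 (19.2 to 61.8). All 6 mice were higher, at 1.10 ± 0.17 (adjusted p = 3.02e-05 in edgeR), although the value of mouse 6 remained within the control range. Nat10, an RNA cytidine acetyltransferase, was higher in 6 of 6 mice by 0.27 ± 0.11 but passed only edgeR (adjusted p = 0.0496) and not DESeq2 (adjusted p = 0.084).

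All 4 measured late 40S assembly genes rose by a nearly equal amount, between 0.90 and 0.98 on the log2 scale. Bysl, bystin, went from 37.2 FPM (28.6 to 46.5) to 71.1 FPM (38.2 to 95.3) and was higher in 5 of 6 mice, at 0.98 ± 0.17 (adjusted p = 0.000101 in edgeR). Only the U46619 library of mouse 6 lay among the controls. Tsr1 shares 1240 exon bases with Srr on the other strand, so that its counts depend on how fragments of the shared part were assigned.

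In the PeBoW complex, required for 60S maturation, Pes1, Bop1 and Wdr12 were all DEG. Wdr12 was at 22.03 FPM in controls (20.9 to 27.6) and 40.4 FPM with U46619 (27.6 to 51.4), separate by a narrow margin and higher in 6 of 6 mice by 0.81 ± 0.16 (adjusted p = 0.00039 in edgeR). Pes1 rose by only 0.31 ± 0.10 (adjusted p = 0.0175 in edgeR), with the same direction in every mouse.

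Among the 60S assembly genes, 13 of 14 rose. Ddx21, a nucleolar RNA helicase, went from 92.8 FPM in controls (50.5 to 123) to 188.7 FPM with U46619 (120.1 to 330.1). Only the lowest U46619 library, that of mouse 6, reached into the control range, and the difference within mice was positive in 6 of 6, at 1.09 ± 0.19 (adjusted p = 0.000107 in edgeR). Ddx18, another helicase, rose by a smaller but even amount, 0.44 ± 0.08 (adjusted p = 0.000175 in edgeR), with differences of 0.31 to 0.54 in the single mice. Ddx56 was the exception with 0.29 ± 0.16 (adjusted p = 0.141 in edgeR).

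With EGF alone for 24 h, none of the 48 genes was a DEG by the rule or by edgeR's quasi-likelihood test and DESeq2 separately, and 0.0275% of all genes tested were. The study itself reported many more DEG for EGF at 24 h than were called here, and the reason was not tested. The fitted change was nevertheless positive for 45 of 48 genes, with a median log2-fold change of 0.25 against -0.03 over all genes, and 16 genes had an unadjusted p below 0.05 in edgeR (15 higher, 1 lower), as had 17.8% of all genes tested. The 1 lower gene was Polr1c, whose median was 56.5 FPM (34.1 to 76.6) and which was lower in 6 of 6 mice at -0.31 ± 0.15 (adjusted p = 0.28 in edgeR). Ncl had a median of 416 FPM with EGF (281 to 509) and was higher in 6 of 6 mice, at 0.46 ± 0.17 (adjusted p = 0.156 in edgeR). Polr1a, Npm1 and Fbl had 0.20 ± 0.15, 0.22 ± 0.16 and 0.21 ± 0.18, each less than 2 SE from 0. The largest fitted change was that of Tsr1 with 0.61 ± 0.32 (adjusted p = 0.31 in edgeR).

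EGF+U46619 for 24 h gave 45 higher DEG and none lower, where 16.3% of all genes tested were higher and 15.8% lower DEG. The median log2-fold change was 0.89, against -0.05 over all genes, and 17 genes at least doubled. Nop58 again had the largest change, with a median of 131 FPM (44.9 to 154.05) and a log2-fold change of 1.45 ± 0.25 (adjusted p = 4.52e-05 in edgeR). Mouse 6 was the exception there, with the lowest value of the group, below its own control. Ncl reached 737 FPM (306 to 981) and 1.27 ± 0.18, also with mouse 6 lowest and slightly below its control. Polr1a was at 88.6 FPM (49.2 to 119), Polr1b at 33.7 FPM (18.7 to 46.3), and their log2-fold changes were 0.83 ± 0.16 and 0.95 ± 0.16 (adjusted p = 9.79e-05 and 3.47e-05 in edgeR).

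By role, the pattern of the combination followed that of U46619, with all 12 processome genes, 3 of 3 box C/D and PeBoW genes, 4 of 4 late 40S genes, 6 of 6 nucleolar phosphoproteins and GTPases, 13 of 14 60S genes, 2 of 3 box H/ACA genes and 2 of 3 RNA polymerase I subunits called. Rrp12 reached 41.8 FPM (25.8 to 58.0), Nhp2 196 FPM (97.9 to 314) and Ddx21 249.7 FPM (98.9 to 366). Their log2-fold changes were 1.25 ± 0.17, 1.29 ± 0.25 and 1.35 ± 0.20. In the late 40S group Tsr1 changed most, from 18.7 FPM in controls (13.7 to 22.1) to 44.6 FPM (22.2 to 57.1), at 1.19 ± 0.32 (adjusted p = 0.00343 in edgeR), and the groups were separate by a narrow margin. Fbl was at 129 FPM (77.6 to 156.8), Npm1 at 644 FPM (294 to 717) and Wdr12 at 50.2 FPM (25.3 to 55.5). Polr1c, Nop10 and Ddx56 were not DEG.

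The direct comparison of EGF+U46619 with U46619 alone gave no DEG among the 48 genes and none among all genes (0%). The median log2-fold change was 0.12, from -0.02 for Bysl to 0.31 for Heatr1, no gene had an unadjusted p below 0.05 in edgeR, and DESeq2 alone called none. Against EGF alone, in contrast, EGF+U46619 was higher for 43 genes, where 6.74% of all genes were higher DEG, and U46619 was higher for 30 genes, where 5.93% were. Nhp2 led both comparisons with 1.14 ± 0.25 (adjusted p = 0.00209 and 0.00263 in edgeR). The count of 30 rested on the set of mice, since it was 10, 8, 8 and 12 without mouse 1, 2, 4 or 5, and the count of 43 was 20 without mouse 2 and 27 without mouse 4. These counts of fits with a mouse left out are not set against the share of all genes. The comparisons share the EGF libraries, as those above share the controls. The test of the interaction of EGF and U46619, the change with both beyond the sum of the single changes, called no gene of the set, and 0% of all genes. Its median was -0.11, no gene had an unadjusted p below 0.05 in edgeR, and DESeq2 alone called none.

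AngII alone called no gene of the set at 24 h (0% of all genes). The median log2-fold change was -0.02, the genes ranged from -0.15 for Rrs1 to 0.17 for Utp15, no gene had an unadjusted p below 0.05 in edgeR, and DESeq2 alone called none. EGF+AngII called none either (3.13% of all genes were DEG), with a median of 0.26, 23 genes at an unadjusted p below 0.05 in edgeR (24.8% of all genes) and 11 called by DESeq2 alone. That count of 0 became 16 without the EGF+AngII+U46619 library of mouse 3, 14 without mouse 6 and 3 without mouse 4. The shares of all genes called in these fits are not given, so the changed counts do not single out this set. EGF+AngII against EGF called none (0% of all genes), at a median of 0.03, with 0 genes at an unadjusted p below 0.05 in edgeR and 0 called by DESeq2 alone.

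EGF+AngII+U46619 gave 46 higher DEG and none lower, where 17.7% of all genes were higher and 15.7% lower DEG, at a median of 0.87. Against EGF+U46619 no gene was called (0% of all genes) and the median was -0.02, with 2 genes, Fbl and Nhp2, at an unadjusted p below 0.05 in edgeR (5.36% of all genes) and none called by DESeq2 alone. Nhp2 had the largest change from control, 1.80 ± 0.26 (adjusted p = 2.66e-06 in edgeR), which was 1.48 without the library of mouse 3. The count of 46 was the same without that library.

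**Figure D3:**
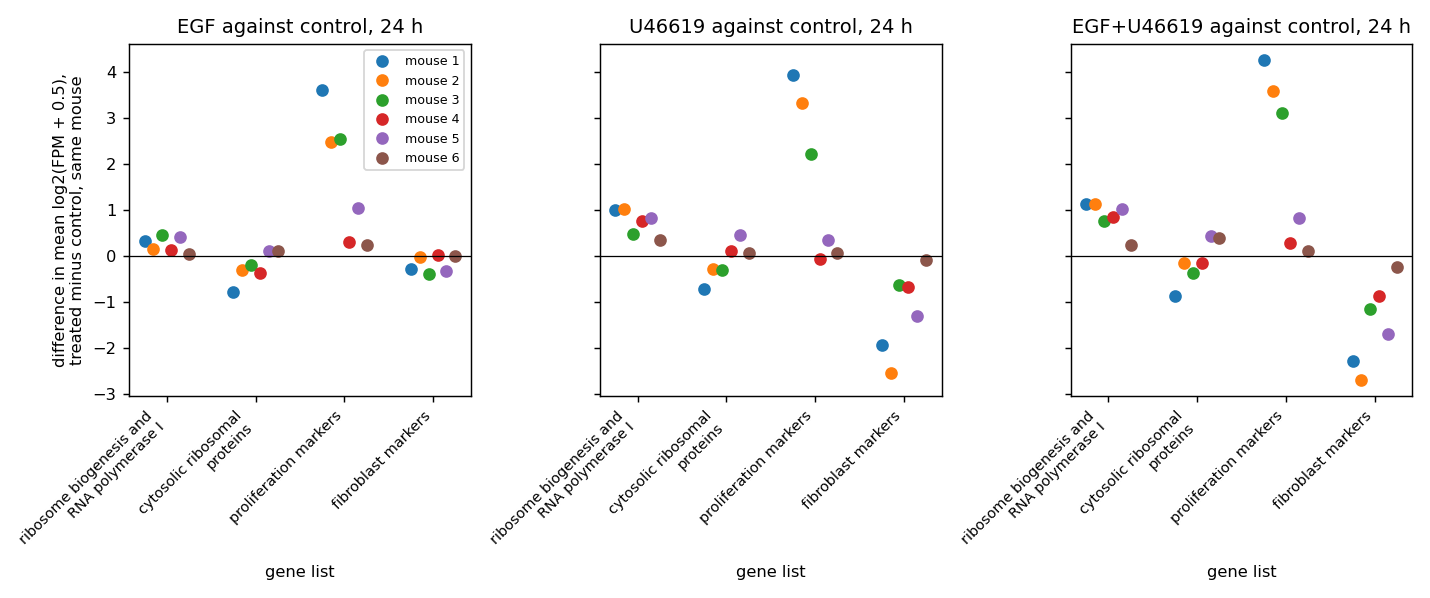
Difference in the mean log2(FPM + 0.5) of 4 gene lists between treated and control cells of the same mouse at 24 h (vertical axis), for EGF, U46619 and EGF+U46619, 1 point per mouse. The ribosome biogenesis and RNA polymerase I genes are above 0 in all 6 mice, at 0.33 to 1.01 with U46619, while with U46619 the proliferation markers are at 2.21 to 3.93 in mice 1 to 3 and at -0.08 to 0.34 in mice 4 to 6.

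The mice differed in size of response. With U46619, the mean log2 level of the 48 genes was 0.99, 1.01, 0.46, 0.75, 0.82 and 0.33 above the control in mice 1 to 6. Over 18 tested proliferation markers, the difference was 3.93, 3.32 and 2.21 in mice 1 to 3 and -0.08, 0.34 and 0.05 in mice 4 to 6. Mice 1 and 2 had the largest differences on both lists, mouse 4 had 0.75 and -0.08, and mouse 6 had 0.33 and 0.05. The relation between the lists was not tested. With EGF the proliferation markers differed by 3.60, 2.46, 2.54, 0.30, 1.02 and 0.23 in mice 1 to 6, and the ribosome biogenesis genes by 0.32, 0.15, 0.45, 0.12, 0.41 and 0.03, with mice 3 and 5 highest. Of the proliferation markers 11 were higher DEG with U46619 and none with EGF, and the summed level in the control and U46619 groups ranged from 329 to 892 and from 851 to 3452 FPM. In U46619 against EGF, none of the proliferation markers was a DEG (0 at an unadjusted p below 0.05 in edgeR) and their median log2-fold change was 0.01, while that of the ribosome biogenesis genes was 0.51. Fibroblast markers moved the other way with U46619, with 8 of 10 lower DEG and a summed level of 8242 to 58634 FPM in controls and 5571 to 44810 FPM with U46619. Of 8 tested smooth muscle markers 3 were higher DEG with U46619, and their summed level was 1313 to 5473 FPM in controls (median 2777) and 4640 to 18472 FPM with U46619 (median 12100). Actg2, a smooth muscle actin, changed most of them, by 2.68 on the log2 scale. In controls that sum was mostly Acta2, with a median of 2424 FPM. The median of the mean log2 level of the list was 5.27 in controls and 5.86 with U46619. Of 4 tested leukocyte markers 1 was higher and 2 were lower DEG, led by Lyz2 at -1.31, and the median of the summed level was 92.7 FPM in controls and 42.5 FPM with U46619. Lyz2 alone had a control median of 60.8 FPM. The median of the mean log2 level of the leukocyte list was 0.967 in controls and 0.925 with U46619. Endothelial markers stayed high in mice 4 to 6 and low in mice 1 to 3 under all treatments. The part of these cell populations in the result was not tested.

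Other genes of the pathway, from lists made with earlier results of these data known, had smaller medians. Of 44 other small-subunit factors tested, 27 were higher DEG with U46619 at 24 h and none was lower, with a median log2-fold change of 0.44, and Mphosph10, of the processome, changed most at 1.06. Of 49 other large-subunit factors, 29 were higher and 1 lower with a median of 0.47, and Lyar, a nucleolar zinc finger protein, changed most at 1.29. The 1 lower gene was Nop53 at -0.80, named after its value was seen. Of 66 cytosolic ribosomal protein genes none was a DEG (1 at an unadjusted p below 0.05 in edgeR), and their median was -0.13. Their summed level ranged widely, from 39823 to 114804 FPM in the 24 h controls and from 43797 to 71313 FPM with U46619. DESeq2 and edgeR together thus called factors that assemble ribosomes but none of the ribosomal proteins themselves, and the difference between the lists was not tested.

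Among 15 other RNA polymerase I and rDNA factors, 5 were higher DEG and none was lower, with a median of 0.17. They were Cd3eap, Polr1e, Twistnb and Polr2k, all polymerase subunits, and Rrn3, the initiation factor that brings RNA polymerase I to its promoter. Cd3eap led with 0.94. Ubtf, the upstream binding factor of rDNA, had -0.21. Split after the values were seen, 5 of 6 subunits found in RNA polymerase I only were higher DEG, with a median of 0.65, and the exception was Znrd1 with -0.11. Of 7 subunits shared with other polymerases 1 was, with a median of 0.17. With EGF+U46619 the counts were 5 of 6 and 0 of 7, at medians of 0.86 and 0.18.

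Of the 10 genes of the MYC network, 2 were higher and 4 lower DEG with U46619 at 24 h. Myc rose by 1.33 ± 0.24 and Mycl by 1.76, whereas Max, Mnt, Mxd1 and Mxd4, which partner or oppose MYC, fell by 0.27, 0.46, 0.46 and 1.15 on the log2 scale. The 10 genes of the set with a CACGTG in their promoter window were all DEG with U46619 and had a median log2-fold change of 0.87, and the 32 tested genes whose window lacks it had 28 DEG and a median of 0.79. With EGF+U46619 both medians were 0.93 and 0.92.

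At 48 h the fitted changes had smaller medians. U46619 gave 5 higher DEG of 48, where 2.48% of all genes were higher DEG and 1.55% lower, and no gene of the set was lower. The median log2-fold change was 0.28 against -0.02 over all genes, 46 genes were positive and 26 had an unadjusted p below 0.05 in edgeR (22.3% of all genes). The DEG were Polr1a, Wdr75 and Heatr1 of the processome, and Nop2, an RNA methyltransferase, and Ddx21 of 60S assembly. Within the 5 sets, the median difference of the genes was 0.10 to 0.38. The fits at 48 h held both batches without a term for batch. Controls of the EGF/AngII batch from the same mice thus entered the fitted changes. Those can differ from the differences within the EGF/U46619 sets listed below. Whether the time points differ was not tested, since they come from other cultures and separate fits.

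Polr1a was at 46.0, 39.7, 37.4, 45.2 and 53.3 FPM in the controls of the EGF/U46619 batch and at 42.02, 38.4, 38.3, 42.8 and 87.7 FPM in those of the EGF/AngII batch. With U46619 it was at 55.2, 58.5, 58.2, 61.2 and 71.6 FPM, above every control of its batch, but below the highest control of the other. Its log2-fold change was 0.54 ± 0.15 (adjusted p = 0.0281 in edgeR and 0.0127 in DESeq2), and 0.47 in the EGF/U46619 batch alone.

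Ddx21 was at 97.4, 119, 91.8, 142 and 156.3 FPM in the controls of the EGF/U46619 batch and at 129.9, 182.1, 177.8, 184.4 and 208 FPM with U46619. The ranges overlapped in the first set, but the value was higher in each of the 5 sets, by 0.56 ± 0.14 (adjusted p = 0.0188 in edgeR). Heatr1, a processome scaffold, was at 20.3, 22.2, 17.8, 26.2 and 26.4 FPM in those controls and at 27.1, 30.3, 34.1, 35.3 and 38.4 FPM with U46619. No U46619 library overlapped with these controls, and the log2-fold change was 0.47 ± 0.14 (adjusted p = 0.0436 in edgeR). For both Ddx21 and Heatr1, the highest control of the EGF/AngII batch, which also entered the fit, lay above every U46619 library. It was at 255 FPM for Ddx21.

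The count of 5 moved with most changes of the fit. The share of all genes called is given for the main fits only, so counts of other fits are not set against all genes. With each culture set as its own block it was 18, and in the EGF/U46619 batch alone, also with the set as the block, it was 23 of 48. Both of these fits treat the sets that share mouse 7 as separate replicates. The main fit has 1 block for mouse 7, but within it the libraries of these sets also count as separate observations. The count was 12 by DESeq2 alone, 1 with no filter on low counts and 0 with total-count scaling. It was 0 without the 2 control libraries that stood apart, 0 without replicate 2, 3 or 4 of the EGF/U46619 batch, 1 without replicate 2 and 3 without replicate 6 of the EGF/AngII batch.

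EGF+U46619 at 48 h gave 21 higher DEG, where 3.84% of all genes were higher DEG and 3.01% lower. No gene of the set was lower, and the median was 0.40. Ddx21 was again first, at 136, 184.5, 204, 187.8 and 239.6 FPM and 0.67 ± 0.14 (adjusted p = 0.00333 in edgeR). Ncl was at 539.8, 546, 474, 701 and 628 FPM in the controls of the EGF/U46619 batch and at 608, 820.1, 840.2, 839 and 1074 FPM with EGF+U46619, higher in each set at 0.60 ± 0.15 (adjusted p = 0.0135 in edgeR). Polr1a was at 54.5, 55.3, 60.7, 59.6 and 84.7 FPM, with 0.58 ± 0.14 (adjusted p = 0.0114 in edgeR). All 5 values lay above the controls of the same batch.

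In the other roles, Fbl changed most of the box C/D proteins, with 67.6, 100.9, 96.5, 129.6 and 100.3 FPM in the controls of the EGF/U46619 batch and 76.6, 155.3, 128, 129 and 169.4 FPM with EGF+U46619. The fourth set did not rise, and the log2-fold change in the fit of both batches was 0.61 ± 0.19 (adjusted p = 0.0392 in edgeR). Nhp2 was at 64.1, 93.1, 117, 143 and 84.8 FPM in those controls and at 94.6, 155.97, 147.5, 165.9 and 126 FPM with EGF+U46619. The groups overlapped, but each of the 5 sets was higher, at 0.61 ± 0.19 (adjusted p = 0.0436 in edgeR). Tsr1 was at 23.2, 22.4, 18.9, 23.5 and 36.2 FPM in the controls and at 31.4, 30.5, 42.4, 32.1 and 63.1 FPM with EGF+U46619, and only the highest control reached into the treated range. The log2-fold change of Tsr1 was 0.62 ± 0.17 (adjusted p = 0.0201 in edgeR). Heatr1 was at 29.6, 29.0, 39.2, 38.0 and 47.4 FPM with EGF+U46619, above all controls of the same batch, at 0.61 ± 0.14 (adjusted p = 0.00527 in edgeR). None of the PeBoW genes was called, and the largest of their log2-fold changes was 0.40 ± 0.15 for Wdr12.

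Polr1b was at 11.5, 16.2, 13.4, 19.3 and 18.6 FPM in the controls of the EGF/U46619 batch, at 13.2, 21.8, 23.3, 23.4 and 26.3 FPM with U46619 and at 17.0, 19.9, 23.2, 22.5 and 32.3 FPM with EGF+U46619. It was higher in every set with either treatment, and a DEG with EGF+U46619 only, at 0.54 ± 0.17 (adjusted p = 0.0408 in edgeR) against 0.45 ± 0.17 with U46619 (adjusted p = 0.106 in edgeR), a difference between treatments that was itself not called. Npm1 was at 675, 593, 572, 756 and 674 FPM in the controls, at 621, 833, 615, 748 and 766 FPM with U46619 and at 626, 1094, 717, 873 and 963 FPM with EGF+U46619. The first set was lower with both treatments, and the log2-fold changes were 0.18 ± 0.12 (adjusted p = 0.4 in edgeR) and 0.42 ± 0.12 (adjusted p = 0.0296 in edgeR).

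Polr1c, which had a negative sign at 24 h, was at 59.6, 63.4, 68.1, 67.2 and 53.4 FPM in the 48 h controls of the EGF/U46619 batch and at 56.1, 99.8, 58.7, 68.4 and 71.4 FPM with EGF+U46619. The groups overlapped and 3 of 5 sets were higher, at 0.36 ± 0.13 (adjusted p = 0.0818 in edgeR). Nop10 was at -0.19 ± 0.14 on the log2 scale and was no DEG either.

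**Figure D4:**
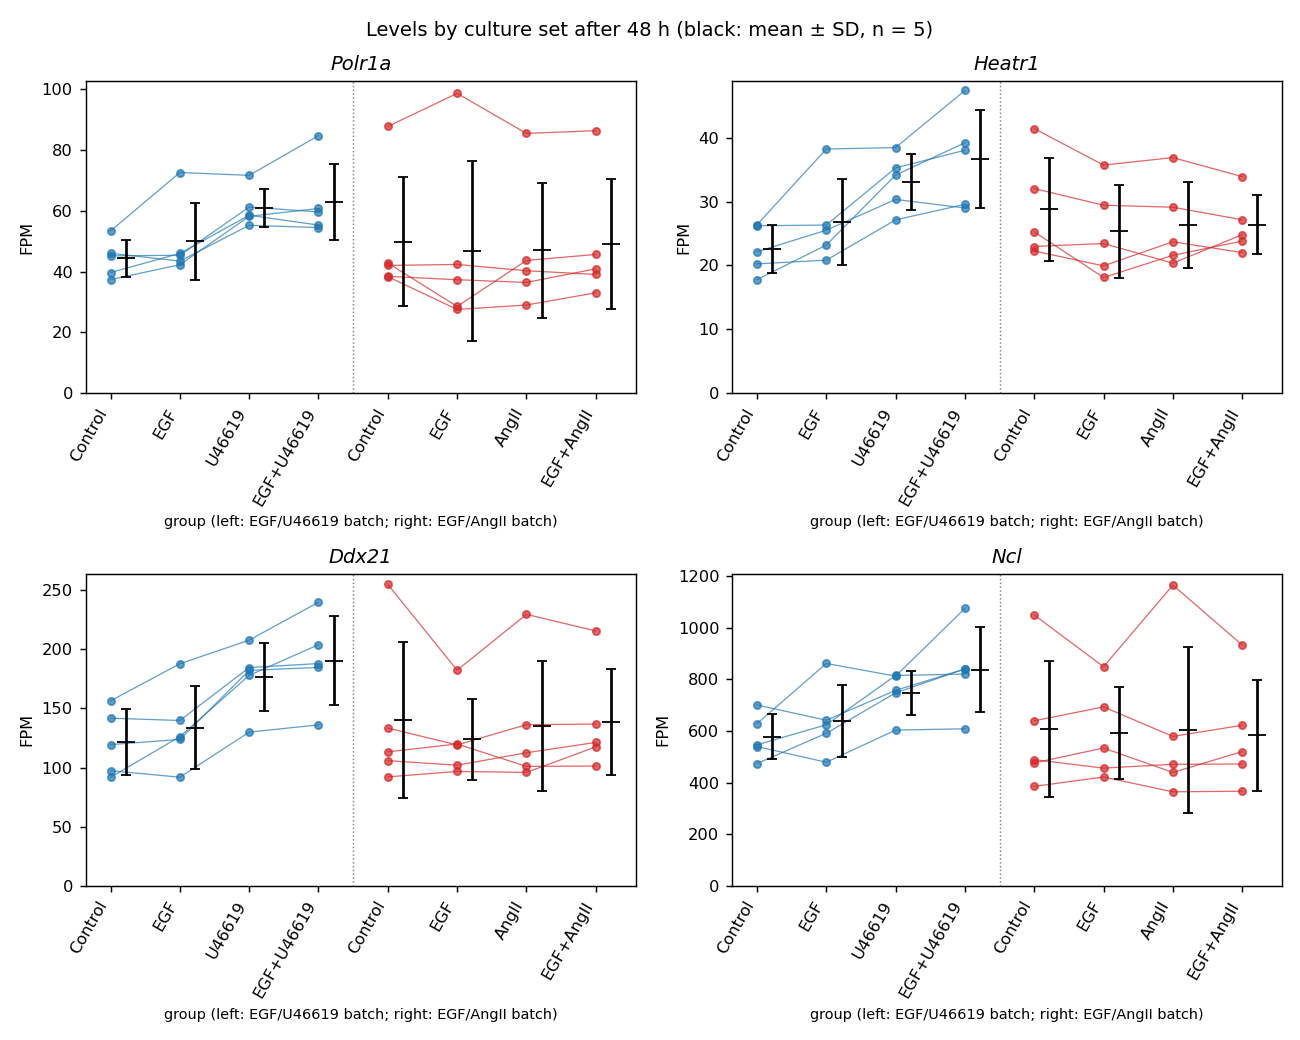
Level (FPM, linear axis from 0) of Polr1a, Heatr1, Ddx21 and Ncl at 48 h, 1 line per culture set, blue for the EGF/U46619 batch and red for the EGF/AngII batch, with the mean ± SD of 5 sets in black. In the blue lines the levels are higher with U46619 and EGF+U46619, and 1 red set, replicate 6, lies above the other 4 in every group.

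The count of 21 was 34 with each culture set as its own block and 37 in the EGF/U46619 batch alone, where sets of mouse 7 again count as separate. It was 8 without the 2 control libraries that stood apart, 10 without replicate 2 of the EGF/AngII batch, and 9, 2, 12 and 8 without replicate 2, 3, 4 or 5 of the EGF/U46619 batch.

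**Figure D5:**
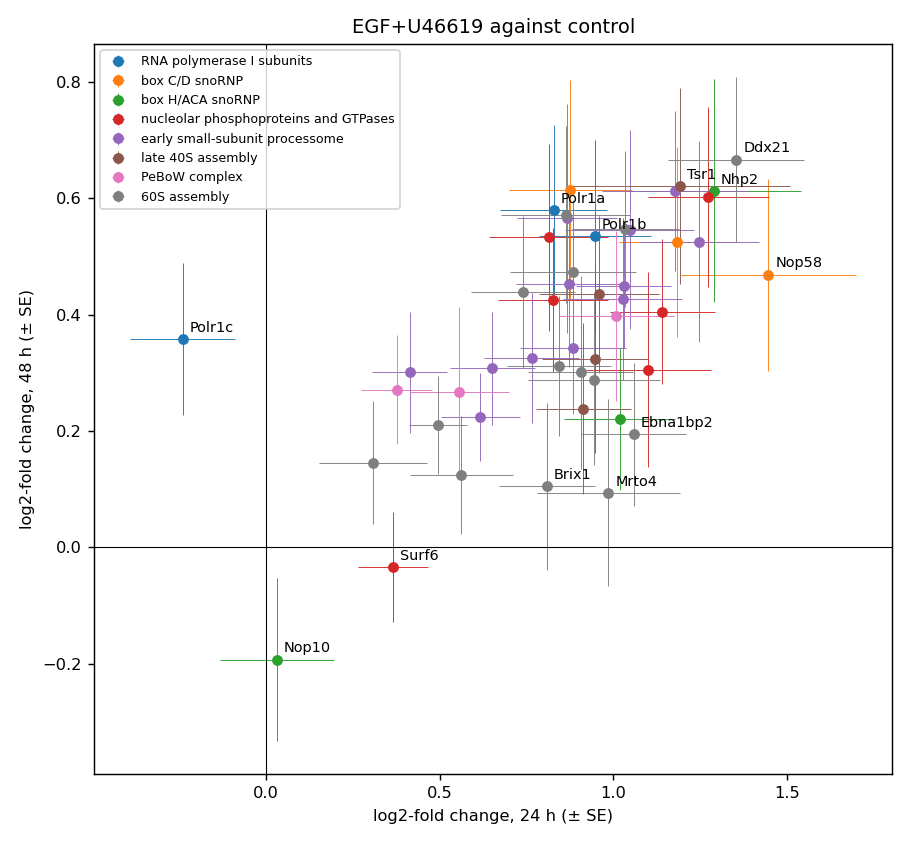
Log2-fold change of the 48 genes with EGF+U46619 against control at 24 h (horizontal axis) and 48 h (vertical axis), each ± SE and coloured by role. Most genes lie at 0.4 to 1.4 at 24 h and at 0.1 to 0.7 at 48 h, with Ddx21 high in both, and Mrto4, Brix1 and Ebna1bp2 near 0 at 48 h only. The time points are separate fits of other cultures and batches, and their difference was not tested.

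Several genes with large fitted changes at 24 h, named after their values were seen, were near 0 in the separate fit at 48 h. The time points differ in cultures and sequencing batch, and the study compared only the direction of changes between them. Whether the changes of these genes differ between the time points was not tested. Mrto4, Brix1 and Ebna1bp2 of 60S assembly had 0.99 ± 0.21, 0.81 ± 0.14 and 1.06 ± 0.15 with EGF+U46619 at 24 h, and 0.09 ± 0.16, 0.10 ± 0.14 and 0.19 ± 0.12 at 48 h. The 60S group had 5 of 14 DEG at 48 h with a median of 0.29, the processome group 5 of 12 with a median of 0.44.

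EGF+U46619 against EGF at 48 h called 7 genes, where 2.62% of all genes were higher DEG, namely Polr1a, Ncl, Wdr75, Heatr1, Tsr1, Nop2 and Ddx21, and U46619 against EGF called Polr1a and Ddx21, where 1.91% were. The count of 7 was 4 and 3 without replicates 2 and 6 of the EGF/AngII batch and 4, 1 and 2 without replicates 2, 3 and 4 of the EGF/U46619 batch. The count of 2 was 1 without replicate 2 of the EGF/AngII batch or replicate 1 of the EGF/U46619 batch, and 0 without replicate 6 of the EGF/AngII batch or replicate 2, 3 or 4 of the EGF/U46619 batch. EGF+U46619 against U46619 called none (0% of all genes), at a median of 0.09, with 0 genes at an unadjusted p below 0.05 in edgeR and 0 called by DESeq2 alone. EGF, AngII and EGF+AngII against control called none (0% of all genes each), at medians of 0.06, -0.03 and -0.09, with no gene at an unadjusted p below 0.05 in edgeR and none called by DESeq2 alone.

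Of the pathway lists at 48 h, EGF+U46619 gave 8 higher DEG of 44 other small-subunit factors and 8 of 49 other large-subunit factors, led by Wdr46 with 0.51 and Nvl with 0.54, and none of 15 other RNA polymerase I factors or 66 ribosomal proteins. Of the MYC network Myc and Mlx were higher DEG, and Myc changed most with 1.04. Of the proliferation markers none was a DEG, and their mean log2 level differed from the control by -0.35 to 1.01 over the 5 sets, while that of the ribosome biogenesis genes differed by 0.15 to 0.49.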

How the data were processed

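Total RNA of aVSMC was poly(A)-enriched and sequenced. Per the study's methods and the submitters' processing notes, fragments were aligned to mm10 with HISAT2 2.1.0 and assigned to genes with featureCounts. The strand setting is not given in the sources used here. The authors deposited raw counts per gene in 3 tables, 1 for the 42 libraries at 24 h and 1 for each of the 2 batches at 48 h, 40 libraries together. All genes of chromosomes 9, X, Y and MT were listed at 0, as were Nob1 and Nip7. The depth was 16483529 to 20818809 counts at 24 h and 19936925 to 33916114 at 48 h, which limits the precision of low genes. No libraries held identical counts. The samples were grouped by their labels.

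The members and all gene lists were chosen with earlier results of these data known. Each time point was fitted in 1 model with treatment and mouse number as terms and none for batch. The tools were edgeR 4.0.16 (quasi-likelihood test, TMM) and DESeq2 1.42.0 under R 4.3.3. Genes had to pass edgeR's filter on low counts at both time points (14528 of 14653 and 15796). p-values were adjusted by Benjamini-Hochberg over all genes tested, and a DEG needed an adjusted p below 0.05 in both tools and 5 FPM in 1 group compared. SE were derived from the fold change and the F statistic. Differences within a mouse or culture set used log2(FPM + 0.5). Same-numbered libraries deviated together, with a correlation over 0.1 in 126 of 126 pairs at 24 h (lowest 0.366) and 57 of 60 at 48 h (lowest -0.454, with the control of replicate 4 of the EGF/AngII batch). At 48 h, the labels gave 5 mice for the 10 culture sets, with 5 of the sets from mouse 7. By the labels, sets of 1 mouse recur within and between batches and are not independent animals. The study's methods instead state a different mouse for each replicate.

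Described by sample were Polr1a, Polr1b, Polr1c, Ncl, Npm1 and Fbl, and, for EGF, U46619 and EGF+U46619 at 24 h and for U46619 and EGF+U46619 at 48 h, the DEG with the largest change of each role. Other genes were named as extremes or as exceptions after their values were seen. Alternatives were DESeq2 alone, other scalings, no filter, no mouse block, culture sets as the block, 1 batch alone, leaving out each replicate and, chosen after seeing the data, leaving out 1 library at 24 h or 2 controls at 48 h. The fits were tested on simulated data.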

Additional observations from a re-analysis of the deposited data

Results flagged for a closer look

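Among the 14 genes described by sample and the medians over the 48 genes, 193 sets of 4 to 10 values were examined for a highest or lowest value far from the others, and 33 were found. Chance gives about 1 in 20. Replicate 6 of the EGF/AngII batch at 48 h gave the most. Its control was the highest for Ddx21 (255 FPM), Ncl (1049 FPM), Npm1 (1085 FPM), Polr1a (87.7 FPM), Polr1b (33.1 FPM) and Tsr1 (60.6 FPM). Its AngII library was highest for Bysl (55.6 FPM), Fbl (163.9 FPM), Ncl (1164 FPM), Npm1 (1137 FPM), Polr1a (85.4 FPM) and Polr1b (33.2 FPM). Its EGF+AngII library was highest for Fbl (109 FPM), Npm1 (995 FPM), Polr1a (86.3 FPM), Polr1b (24.0 FPM), Polr1c (57.2 FPM) and Tsr1 (55.0 FPM), and its median difference for EGF+AngII was the lowest, at -0.25 on the log2 scale.

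At 24 h, mouse 3 was highest for Fbl (443 FPM), Nhp2 (999 FPM) and Polr1c (166.2 FPM) with EGF+AngII+U46619, for Nhp2 with EGF+AngII (209 FPM) and for Polr1b with EGF (45.1 FPM). Mouse 6 was lowest for the median difference with EGF+U46619 (0.24 on the log2 scale), for Wdr12 with EGF+U46619 (25.3 FPM) and for Rrp12 with EGF+AngII+U46619 (24.3 FPM). Wdr12 was highest in the control of mouse 4 (27.6 FPM).

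In the EGF/U46619 batch at 48 h, replicate 5 was highest for Polr1a with EGF+U46619 (84.7 FPM), for Tsr1 with U46619 (52.9 FPM) and for the median difference with EGF (0.43 on the log2 scale). Replicate 1 was lowest for Wdr12 with EGF+U46619 (33.5 FPM), and replicate 2 was highest for Polr1c with U46619 (92.1 FPM).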

How the results depend on the processing

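At 24 h, the counts of DEG for U46619, EGF+U46619 and EGF+AngII+U46619 against control stayed within 1.5 times the reported ones in every alternative, at 40 to 45, 45 to 46 and 43 to 46 when leaving out each replicate and at 30, 39 and 37 with no replicate block. With each replicate left out, 40 of the 44 U46619 calls were kept every time, all but Pes1, Rrp1b, Surf6 and Tsr1, as were 45 of 45 for EGF+U46619 and 43 of 46 for EGF+AngII+U46619, but only 7 of 30 for U46619 against EGF and 18 of 43 for EGF+U46619 against EGF. The comparisons with EGF moved: with no replicate block (no mouse pairing) U46619 against EGF gave 0 and EGF+U46619 against EGF 4, total-count scaling gave 11 for the first, and leaving out each replicate gave 8 to 42 and 20 to 43. EGF alone gave 0 to 2 and EGF+AngII 0 to 14 when leaving out each replicate, and EGF+AngII gave 11 by DESeq2 alone, 2 with total-count scaling and 16 without the EGF+AngII+U46619 library of mouse 3. Total-count scaling moved the median of all genes with U46619 to -0.12 and that of the 48 genes to 0.70, and it moved the median of EGF+AngII+U46619 against EGF+U46619 to -0.12.

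At 48 h, U46619, EGF+U46619, U46619 against EGF and EGF+U46619 against EGF, reported with 5, 21, 2 and 7 DEG, gave 23, 37, 6 and 22 in the EGF/U46619 batch alone, 18, 34, 9 and 27 with the culture set as the block, 1, 9, 0 and 3 with no filter, 0, 9, 0 and 2 with total-count scaling, and 0 each with no replicate block. DESeq2 alone gave 12 for U46619 and 13 for EGF+U46619 against EGF. Without the 2 control libraries U46619 gave 0 and EGF+U46619 8. Leaving out each replicate gave 0 to 6, 2 to 29, 0 to 3 and 1 to 10, and 0 of 5, 2 of 21, 0 of 2 and 1 of 7 calls were kept every time. Sets of 1 mouse were left out one by one, not together. The median for AngII, reported as -0.03, turned to 0.033 in the EGF/AngII batch alone, 0.0346 with the culture set as the block, 0.0583 with no replicate block, and ranged from -0.0542 to 0.0234 when leaving out each replicate. The median for EGF, reported as 0.06, was 0.0898 and 0.00579 within the EGF/U46619 and EGF/AngII batches and 0.00324 without replicate 5 of the EGF/U46619 batch, and that of EGF+U46619 against U46619 was 0.0404 without it. The cause was not tested where the alternative does not itself remove samples or genes. Counts of the alternative fits are given without the share of all genes called in the same fit. Of the values of single genes, 647 kept their direction and side of the threshold, 107 lost the call and none reversed.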
